A study of Mus musculus with 21 samples.

Results

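DNA replication and S-phase genes code for the enzymes that license, open, copy and finish the chromosomes and that supply the nucleotides for it. A list of 38 such genes was followed across all 7 groups of the study. For each gene, the probe set that is assigned to that gene alone and has the highest mean log2 signal over the 21 arrays was used. Of the 38, 37 had such a probe set, out of 18193 genes measured, and all 37 were among the 12154 genes tested; Chaf1a, a histone chaperone subunit, was not analysed here.

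The study sorted monocytes and macrophages from female C57BL/6 mice aged 7 to 8 weeks. Inflammation was started with 20000000 particles of zymosan, a yeast cell wall preparation, given into the peritoneum. Zymosan groups were Ly-6B+ Ly-6G- monocytes at 4 h, Ly-6B+/low Ly-6G- monocyte/macrophages at 18 h, F4/80+ CD11b+ macrophages at 72 h, and 2 macrophage populations at 168 h, Ly-6B+ F4/80(med-high) and Ly-6B- F4/80(high). Naive mice gave the F4/80(high) CD11b(high) resident peritoneal macrophages and the Ly-6B+ Ly-6G- bone marrow monocytes. Each group had 3 arrays that the labels call biological replicates; whether animals were pooled for an array is not given in the sources used here.

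Replication is prepared in G1 phase, when the origin recognition complex, Cdc6 and Cdt1 load the Mcm2 to Mcm7 helicase onto DNA. In S phase Cdc45 and the GINS complex switch the helicase on, and polymerases alpha, delta and epsilon copy the strands behind it with the Pcna clamp and its loader. Most of these genes are switched on at the border of G1 and S by E2F transcription factors, and their transcripts are low in cells that have left the cycle. Blood monocytes are known as mostly non-dividing cells that come from dividing bone marrow precursors, while peritoneal macrophages can divide in the tissue.

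Start-site sequence was looked at for the E2F control that the family is known for. RefSeq windows on GRCm38.p6, from 250 bases before to 50 after the start of transcription, were matched by symbol for 31 of the 38 genes, in 36 windows. The searched E2F forms were TTTCCCGC, TTTCGCGC, TTTGCCGC and TTTGGCGC on both strands. Mcm5 and Mcm6 are shown for their overlapping forms in opposite directions, Cdc6 and Orc1 as licensing genes with 1 form each, and Rrm2, the gene with the widest range below, as a window with none. Each window of 300 bases is written 5′ to 3′ along the gene, with capitals on the matches.
Mcm5, chr8:75109259-75109558, plus strand: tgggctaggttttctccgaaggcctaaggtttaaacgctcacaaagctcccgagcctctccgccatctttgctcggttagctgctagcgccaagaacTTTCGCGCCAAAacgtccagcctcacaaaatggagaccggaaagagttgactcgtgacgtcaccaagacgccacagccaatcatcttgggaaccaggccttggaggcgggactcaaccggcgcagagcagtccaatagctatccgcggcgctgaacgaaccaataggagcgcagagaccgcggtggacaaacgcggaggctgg
Mcm6, chr1:128359656-128359955, minus strand: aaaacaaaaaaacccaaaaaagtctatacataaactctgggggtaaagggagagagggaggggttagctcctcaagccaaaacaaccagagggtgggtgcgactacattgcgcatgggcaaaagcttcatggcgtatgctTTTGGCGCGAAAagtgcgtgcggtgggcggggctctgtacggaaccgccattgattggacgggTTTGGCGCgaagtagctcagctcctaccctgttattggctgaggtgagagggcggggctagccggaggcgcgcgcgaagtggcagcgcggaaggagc
Cdc6, chr11:98907901-98908200, plus strand: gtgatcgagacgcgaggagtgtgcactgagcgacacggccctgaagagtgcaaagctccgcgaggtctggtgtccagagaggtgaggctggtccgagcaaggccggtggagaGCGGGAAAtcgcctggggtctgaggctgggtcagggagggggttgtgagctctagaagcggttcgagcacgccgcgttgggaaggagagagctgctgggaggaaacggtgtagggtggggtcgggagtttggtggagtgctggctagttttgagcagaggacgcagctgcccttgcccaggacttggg
Orc1, chr4:108579204-108579503, plus strand: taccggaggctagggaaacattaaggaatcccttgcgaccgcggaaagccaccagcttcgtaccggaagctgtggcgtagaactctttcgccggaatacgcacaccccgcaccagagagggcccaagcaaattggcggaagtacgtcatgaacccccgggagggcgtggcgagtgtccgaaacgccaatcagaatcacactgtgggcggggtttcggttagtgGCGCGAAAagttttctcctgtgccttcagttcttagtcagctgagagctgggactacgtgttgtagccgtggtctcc
Rrm2, chr12:24708004-24708303, plus strand: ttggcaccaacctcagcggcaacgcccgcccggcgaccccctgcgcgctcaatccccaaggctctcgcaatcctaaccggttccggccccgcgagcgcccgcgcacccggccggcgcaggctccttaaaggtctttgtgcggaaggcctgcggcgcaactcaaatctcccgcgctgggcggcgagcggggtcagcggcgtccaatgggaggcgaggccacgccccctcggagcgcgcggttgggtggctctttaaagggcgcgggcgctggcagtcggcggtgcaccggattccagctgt

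An E2F form was present in 13 of the 36 windows (36.1%), against 744 of all 32851 windows (2.26%). The 13 genes were Mcm3, Mcm5, Mcm6 and Mcm7 of the helicase, the licensing genes Orc1, Cdc6 and Cdt1, the polymerase genes Pola1, Pold1 and Pole2, the clamp loader gene Rfc3, the DNA ligase gene Lig1 and Uhrf1. The CCAAT box was in 18 of the 36 windows and in 37.4% of all windows. The short form TTTGAA of the CHR, an element of genes for mitosis, was in 8.33% and in 17.9%. Windows for 24 genes of a G2 and mitosis list (25 windows) held an E2F form in 4.0%, a CCAAT box in 80.0% and TTTGAA in 76.0%. Only 1 of the 19 E2F matches overlapped a CCAAT or TTTGAA match, and the median GC content was 59.8% for the replication genes, 59.0% for the mitosis list and 52.7% over all windows. These are matches of letters and not tested sites.

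The files hold MAS5 signals, the brightness that Affymetrix software computes for each probe set, scaled by the authors so that every array has the same trimmed mean. Signals are given below as deposited, and signals of different genes are not compared, since probes differ. Summed signals of marker lists are set mostly by the brightest probe sets. Each sum is read only against the same list in other arrays. Fold changes are differences of log2(signal + 15), which understate the change of a gene near the floor, with standard errors from limma over all 21 arrays. Calls needed a log2 fold change of at least 1 in size and a p under 0.05 after Benjamini-Hochberg adjustment over the 12154 genes. Array medians over all probe sets ran from 67.3 to 93.0, and precision is limited by the number of arrays.

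Markers set the arrays apart as labelled. Ccr2, a monocyte chemokine receptor, read 17562, 16109 and 15802 at 4 h and 317, 98.4 and 130 in resident cells. Timd4, a resident macrophage receptor, read 57.6, 196 and 34.7 at 4 h, 18688, 19135 and 18075 in resident cells and 3.30, 2.05 and 5.22 in bone marrow. Some arrays also carried markers of other cells. Ms4a1 (CD20), a B cell marker, read 267, 5384 and 289 at 72 h, and the summed signal of the 9 measured B cell markers reached 17000 in 72 h replicate 2, against 1265 in the lowest array of that group. Mpo, a granule gene of myeloid progenitors, read 70.7, 80.5 and 91.8 at 4 h, against 19598, 12013 and 33879 in bone marrow.

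Over the 7 groups, 36 of the 37 genes passed limma's F test at an adjusted p under 0.05, as did 69.7% of all genes tested. The group mean was highest in bone marrow monocytes for 36 of the 37, and lowest at 4 h for 33, at 18 h for 3 and at 72 h for 1. The exception at the top was Fen1, the flap endonuclease of lagging-strand synthesis, whose mean was highest in Ly-6B- cells. Its probe set is of a kind that can bind several related transcripts (suffix _x_at), and is taken up again below. The probe sets chosen for Rrm2, Mcm5, Mcm4, Pold1 and Ccne1 are of the same kind. Those chosen for Mcm2, Mcm3, Mcm7 and Gins2 end in _s_at and likewise need not be specific to a single transcript.

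To set the arrays side by side, each gene's log2 signal was taken relative to its mean in resident cells, and the median over the 37 genes was read for each array. This median was -1.94, -1.95 and -1.81 in the 3 arrays at 4 h, and -0.66, -0.81 and -0.53 at 18 h. It was 0.61, 1.22 and 0.24 at 72 h. At 168 h it was 1.28, 0.65 and 0.26 in Ly-6B+ cells and 0.41, 0.08 and -0.48 in Ly-6B- cells, beside -0.48, 0.41 and 0.09 in resident cells and 1.87, 1.82 and 1.94 in bone marrow monocytes. The 4 h and 18 h arrays lay below all others and apart from each other, and the bone marrow arrays above all others. The arrays of the 72 h, 168 h and resident groups overlapped.

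**Figure D1:**
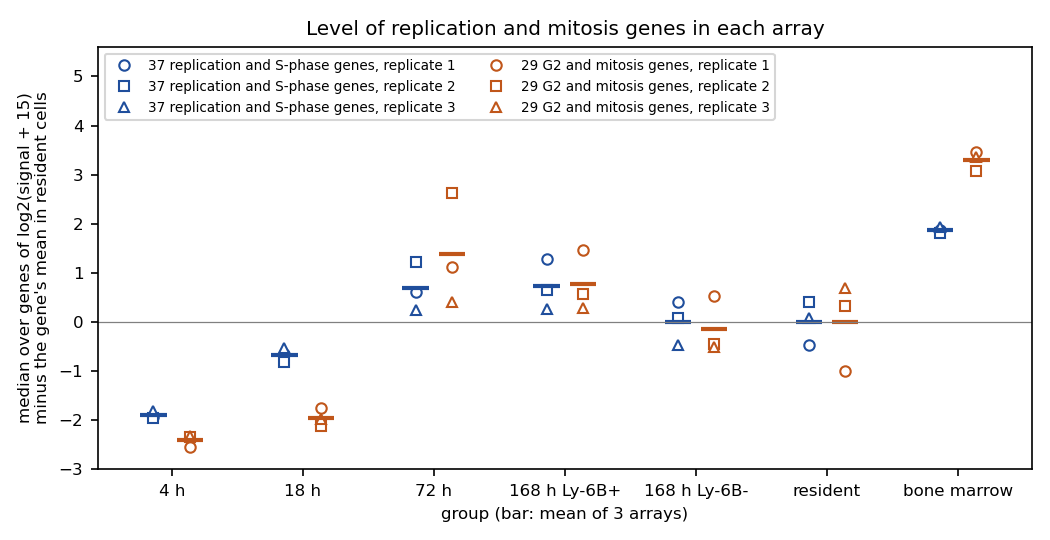
Median over genes of log2(signal + 15) minus the gene's mean in resident macrophages, for each array (symbols by replicate) of the 7 groups, with bars at group means of 3 arrays, for 37 replication and S-phase genes and 29 G2 and mitosis genes. Replication genes at 18 h (-0.81 to -0.53) lie between the 4 h arrays (-1.95 to -1.81) and the 72 h arrays (0.24 to 1.22), while the mitosis genes at 18 h (-2.12 to -1.76) lie close to those at 4 h (-2.56 to -2.32).

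The spread between arrays differed by group. The standard deviation of these array medians was 0.078 at 4 h, 0.137 at 18 h and 0.061 in bone marrow, against 0.494 at 72 h, 0.515 and 0.452 in Ly-6B+ and Ly-6B- cells at 168 h, and 0.448 in resident cells (n = 3 each). The fit estimated each gene's spread over all groups together. Standard errors for comparisons among 4 h, 18 h and bone marrow arrays therefore rest in part on the wider groups. Those for comparisons among the 72 h, 168 h and resident groups rest in part on the narrower ones and can be too small. The pooled standard deviation of the array medians was 0.367. Counts of genes at an unadjusted p in such comparisons carry this limit. The genes also moved together by array, so such counts are not of independent genes. Replicate 2 was the highest of the 72 h arrays for 36 of the 37 genes (for all genes tested, that array was highest in 32.8%), and replicate 3 the lowest for 32. It was also the highest 72 h array for all 29 mitosis genes. Its B cell markers were high as well, as given above, and their part in its replication signals was not tested. In resident cells replicate 1 was the lowest for 35 of the 37 genes, and in Ly-6B+ and Ly-6B- cells replicate 3 was the lowest for 33 and 34.

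**Figure D2:**
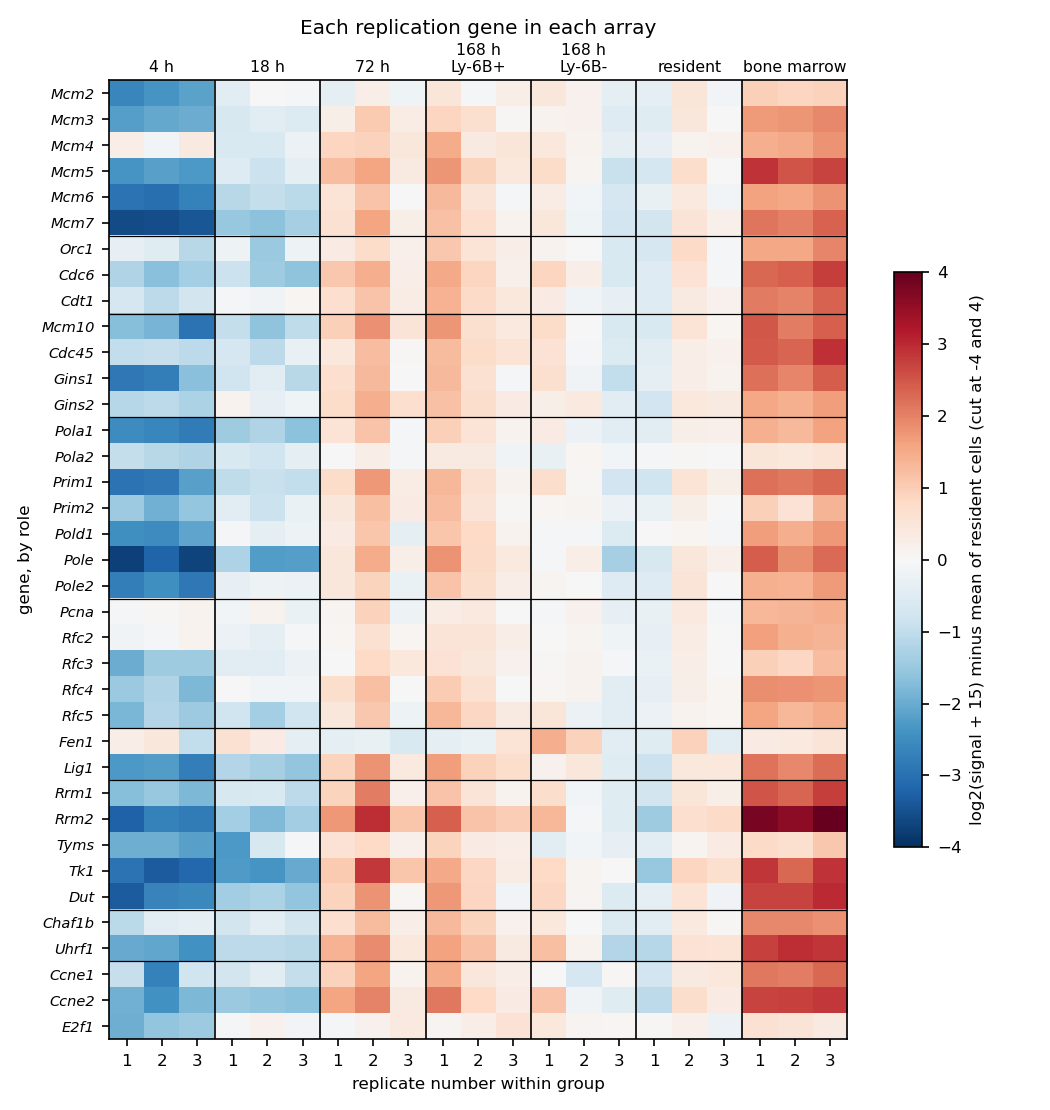
Log2(signal + 15) of each of the 37 genes (rows, grouped by role) in each of the 21 arrays (columns), minus the gene's mean in resident macrophages, with blue below and red above that mean. Bone marrow arrays are red in nearly every row, 4 h arrays blue in most, and Mcm4, Pcna, Rfc2 and Fen1 are pale at 4 h.

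Resident macrophages were first set against bone marrow monocytes, the reference populations of naive mice. All 37 genes were lower in resident cells, 30 of them called lower and 0 called higher, where 10.1% of all genes were called lower and 12.8% higher. The median log2 fold change was -1.82 over the 37 and 0.05 over all genes tested, and for 36 genes the arrays of the groups did not overlap (26.1% of all genes did not overlap in that direction). In a sorted population a smaller share of cells in S phase and less transcript per cell cannot be told apart. The progenitor markers moved with this difference. The summed signal of 10 such genes was 6263 to 9378 in resident cells and 35420 to 95640 in bone marrow. Of the 10, 7 lay under 80.6, the median of the whole table, in all 3 resident arrays. In bone marrow 0 did so. The part of these markers in the result was not tested.

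Rrm2, the regulatory subunit of ribonucleotide reductase, read 220, 991 and 1050 in resident cells, against 8718, 7499 and 12858 in bone marrow. Its log2 fold change of -3.90 ± 0.536 (SE) was the largest among the genes (limma, adjusted p = 4.14e-06). Uhrf1, which guides maintenance methylation to copied DNA, read 123, 437 and 432 in resident cells, against 1989, 2359 and 2185 in bone marrow (-2.85 ± 0.490, adjusted p = 6.03e-05). These groups did not overlap for either gene. Dut, which clears dUTP from the nucleotide pool, read 377, 741 and 454 in resident cells and 3370, 3353 and 4117 in bone marrow (-2.80 ± 0.423, adjusted p = 1.32e-05). Ccne2, a cyclin of the G1 to S passage, read 80.9, 309 and 232 in resident cells and 1273, 1291 and 1377 in bone marrow (-2.75 ± 0.481, adjusted p = 7.36e-05). The 7 genes not called were Mcm2 (-0.92), Pola2 (-0.48), Prim2 (-0.96), Rfc3 (-0.996, just short of the minimum), Fen1 (-0.41), Tyms (-0.83) and E2f1 (-0.49).

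Monocytes at 4 h were set against bone marrow monocytes, the naive cells sorted with the same surface markers. Of the 37 genes 36 were called lower, where 14.5% of all genes were called lower and 7.45% higher, and 36 did not overlap (34.6% of all genes). The log2 fold changes had a median of -3.88 over the 37 and -0.14 over all genes tested. Every role was lower: 6 of 6 helicase genes, 3 of 3 licensing, 4 of 4 helicase activation, 7 of 7 polymerase, 5 of 5 clamp and loader, 5 of 5 nucleotide supply, 2 of 2 chromatin and 3 of 3 G1/S control genes, and Lig1 but not Fen1 of the lagging strand.

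Rrm2 read 52.5, 81.9 and 76.4 at 4 h, against 8718, 7499 and 12858 in bone marrow, a log2 fold change of -6.81 ± 0.536 (limma, adjusted p = 1.75e-09). Tk1, the thymidine kinase of S phase, read 28.9, 19.2 and 23.1 at 4 h and 2468, 1642 and 2477 in bone marrow (-5.82 ± 0.496, adjusted p = 5.6e-09). Pole, the catalytic subunit of polymerase epsilon, read 3.44, 11.8 and 3.84 at 4 h and 1312, 884 and 1163 in bone marrow (-5.74 ± 0.432, adjusted p = 9.31e-10). The signals of Tk1 and Pole at 4 h lay under 80.6, the median of the whole table. Mcm7, a helicase subunit, read 268, 274 and 300 at 4 h and 15045, 13818 and 17399 in bone marrow (-5.70 ± 0.336, adjusted p = 3.03e-11). The smallest called changes were those of Pcna, the sliding clamp (-1.33 ± 0.214, adjusted p = 2.79e-05), Mcm4 (-1.40 ± 0.248, adjusted p = 8.87e-05) and Rfc2 (-1.49 ± 0.165, adjusted p = 2.27e-07). Pcna read 6728, 7284 and 7784 at 4 h and 17622, 18098 and 19145 in bone marrow, groups that did not overlap. Progenitor markers summed to 1343 to 1716 at 4 h and 35420 to 95640 in bone marrow, and neutrophil and granule markers to 15810 to 16320 and 65760 to 202300; their part in the result was not tested.

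The 4 h monocytes were also lower than resident macrophages. Of the 37 genes 29 were called lower and 0 higher, where 21.6% of all genes were called lower and 9.14% higher, and 31 did not overlap (41% of all genes). They had a median log2 fold change of -2.03 beside -0.22 over all genes tested. Pole (-3.56 ± 0.432, adjusted p = 5.37e-07) and Mcm7 (-3.52 ± 0.336, adjusted p = 1.72e-08) fell most, and Mcm7 read 2039, 4842 and 3911 in the resident arrays. The 8 genes not called were Mcm4 (0.18), Orc1 (-0.65), Cdt1 (-0.81), Cdc45 (-0.98), Pcna (0.04), Rfc2 (-0.01), Fen1 (-0.09) and Chaf1b (-0.64). Pcna read 5674, 9215 and 6649 in resident cells, around its 4 h values. This comparison shares its 4 h arrays with the one above.

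At 18 h most of the genes were higher than at 4 h. Of the 37, 20 were called higher and 0 lower at 18 h than at 4 h, where 10.9% of all genes were called higher and 4.48% lower. The median log2 fold change was 1.08 over the 37 and 0.14 over all genes tested, and 26 genes did not overlap in that direction (32.9% of all genes) and 1 in the other (17.1%). Called higher were 5 of 6 helicase genes and 6 of 7 polymerase genes, against 0 of 3 licensing, 0 of 2 chromatin, 2 of 4 activation, 2 of 5 clamp and loader, 1 of 2 lagging-strand, 3 of 5 nucleotide supply and 1 of 3 G1/S control genes. Differences between these shares were not tested. Markers of cell state moved with this step: 10 resident macrophage genes summed to 30680 to 39220 at 18 h and 15570 to 23160 at 4 h (8 of 10 called higher), 6 classical monocyte genes to 88030 to 96480 at 18 h and 145300 to 153300 at 4 h (2 of 6 called lower), and 9 neutrophil and granule genes to 2640 to 3529 at 18 h and 15810 to 16320 at 4 h (4 of 9 called lower). Their part in the result was not tested.

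Pole2, the second subunit of polymerase epsilon, read 524, 580 and 565 at 18 h, against 85.7, 109 and 78.5 at 4 h (log2 fold change 2.44 ± 0.276, limma, adjusted p = 6.21e-07). Mcm2, which also binds histones as a helicase subunit, read 831, 1113 and 1062 at 18 h and 171, 207 and 241 at 4 h (2.20 ± 0.229, adjusted p = 2.03e-07). Pold1, the catalytic subunit of polymerase delta, read 590, 454 and 528 at 18 h and 97.8, 94.1 and 130 at 4 h (2.14 ± 0.273, adjusted p = 2.71e-06). None of the 3 genes overlapped between the times. Mcm7 read 1180, 1080 and 1337 at 18 h and 268, 274 and 300 at 4 h (2.03 ± 0.336, adjusted p = 5.74e-05). E2f1, an activating E2F factor, read 306, 365 and 296 at 18 h and 72.9, 98.1 and 109 at 4 h (1.65 ± 0.179, adjusted p = 3.6e-07). Mcm5 (1.70 ± 0.384, adjusted p = 0.00127), the GINS subunit gene Gins1 (1.66 ± 0.403, adjusted p = 0.00235) and Pola1 of polymerase alpha (1.23 ± 0.271, adjusted p = 0.00102) were called higher as well. The calls of Rrm2 (1.41 ± 0.536, adjusted p = 0.0422) and of Tyms, thymidylate synthase (1.03 ± 0.401, adjusted p = 0.0469), were near the threshold, and Tyms read 4.14, 45.4 and 74.1 at 18 h and 9.22, 9.30 and 5.71 at 4 h.

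Among the 17 genes not called at 18 h, the licensing genes Cdc6 and Orc1 had log2 differences near 0. Cdc6, which helps to load the helicase, read 189, 124 and 108 at 18 h and 146, 101 and 130 at 4 h (0.12 ± 0.370, adjusted p = 0.836). Orc1, the largest origin recognition subunit, read 59.3, 15.9 and 59.6 at 18 h and 54.0, 46.2 and 24.9 at 4 h (0.01 ± 0.380, adjusted p = 0.991). Both overlapped between the times. Mcm4 was the gene whose 18 h arrays all lay below its 4 h arrays, at 1219, 1224 and 1595 against 2265, 1745 and 2407 (-0.66 ± 0.248, adjusted p = 0.0395), short of the minimum fold. Cdt1, the remaining licensing gene (0.78 ± 0.251, adjusted p = 0.0174), and Pola2 (0.51 ± 0.158, adjusted p = 0.0137) did not overlap but were also short of it. The others not called were Mcm10 (0.98), Cdc45 (0.32), Pcna (-0.12), Rfc2 (-0.20), Rfc5 (0.50), Fen1 (0.28), Rrm1 (0.90), Tk1 (0.92), Chaf1b (0.00), Uhrf1 (1.11), Ccne1 (0.79) and Ccne2 (0.48). Of these, Mcm10, Rrm1, Tk1, Uhrf1 and Ccne2 were higher at 18 h without overlap. Uhrf1 read 133, 131 and 125 at 18 h and 59.3, 57.1 and 41.3 at 4 h (limma, adjusted p = 0.0789).

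Most of the genes were higher again at 72 h. Of the 37, 26 were called higher and 0 lower at 72 h than at 18 h, where 9% of all genes were called higher and 3.41% lower. The median log2 fold change was 1.44 over the 37 and 0.03 over all genes tested, and 31 genes did not overlap (22.8% of all genes). Called were 5 of 6 helicase, 2 of 3 licensing, 4 of 4 activation, 4 of 7 polymerase, 1 of 5 clamp and loader, 1 of 2 lagging-strand, 5 of 5 nucleotide supply, 2 of 2 chromatin and 2 of 3 G1/S control genes. With 72 h replicate 2 left out, the array with high B cell markers, 19 of the 37 were called. The share of all genes called without that array is not given here. A loss of calls particular to the 37 therefore cannot be told from a general one. The resident macrophage markers moved with this step too. The 10 such genes summed to 173500 to 219100 at 72 h and 30680 to 39220 at 18 h (9 of 10 called higher). In naive resident cells they summed to 233800 to 253800. The classical monocyte genes summed to 15790 to 25180 at 72 h and 88030 to 96480 at 18 h (6 of 6 called lower). The part of these markers in the result was not tested. Sorting also used different surface markers at 18 h and at 72 h. Time and sorted population therefore cannot be told apart in this step.

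Tk1 read 679, 2396 and 717 at 72 h, against 55.9, 50.6 and 68.8 at 18 h (3.87 ± 0.496, limma, adjusted p = 4.21e-06). Rrm2 read 2074, 4861 and 1362 at 72 h and 230, 173 and 227 at 18 h (3.44 ± 0.536, adjusted p = 4.42e-05). Ccne2 read 576, 761 and 240 at 72 h and 54.9, 51.4 and 48.2 at 18 h (2.88 ± 0.481, adjusted p = 9.52e-05). Replicate 2 was the highest 72 h array for all 3, and the groups did not overlap. Pole read 320, 677 and 277 at 72 h and 90.6, 37.8 and 38.9 at 18 h (2.61 ± 0.432, adjusted p = 8.64e-05). Cdc6 read 775, 997 and 436 at 72 h and 189, 124 and 108 at 18 h (2.23 ± 0.370, adjusted p = 8.79e-05). Lig1, which seals the nicks of the lagging strand, rose by 2.38 ± 0.347 (adjusted p = 1.97e-05), the helicase activation gene Mcm10 by 2.29 ± 0.416 (adjusted p = 0.000226), and the histone chaperone subunit Chaf1b by 1.37 ± 0.307 (adjusted p = 0.00167). Chaf1b read 305, 463 and 224 at 72 h and 104, 134 and 103 at 18 h.

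The 11 genes not called at this step included 3 of the 4 that were highest in fold at 18 h over 4 h. Mcm2 read 852, 1340 and 979 at 72 h and 831, 1113 and 1062 at 18 h (0.06 ± 0.229, adjusted p = 0.879). E2f1 read 313, 365 and 425 at 72 h and 306, 365 and 296 at 18 h (0.18 ± 0.179, adjusted p = 0.512). The other 9 were Pole2 (0.61), Pold1 (0.57), Cdt1 (0.73), Pola2 (0.65), Pcna (0.35), Rfc2 (0.47), Rfc3 (0.79), Rfc4 (0.70) and Fen1 (-0.61).

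**Figure D3:**
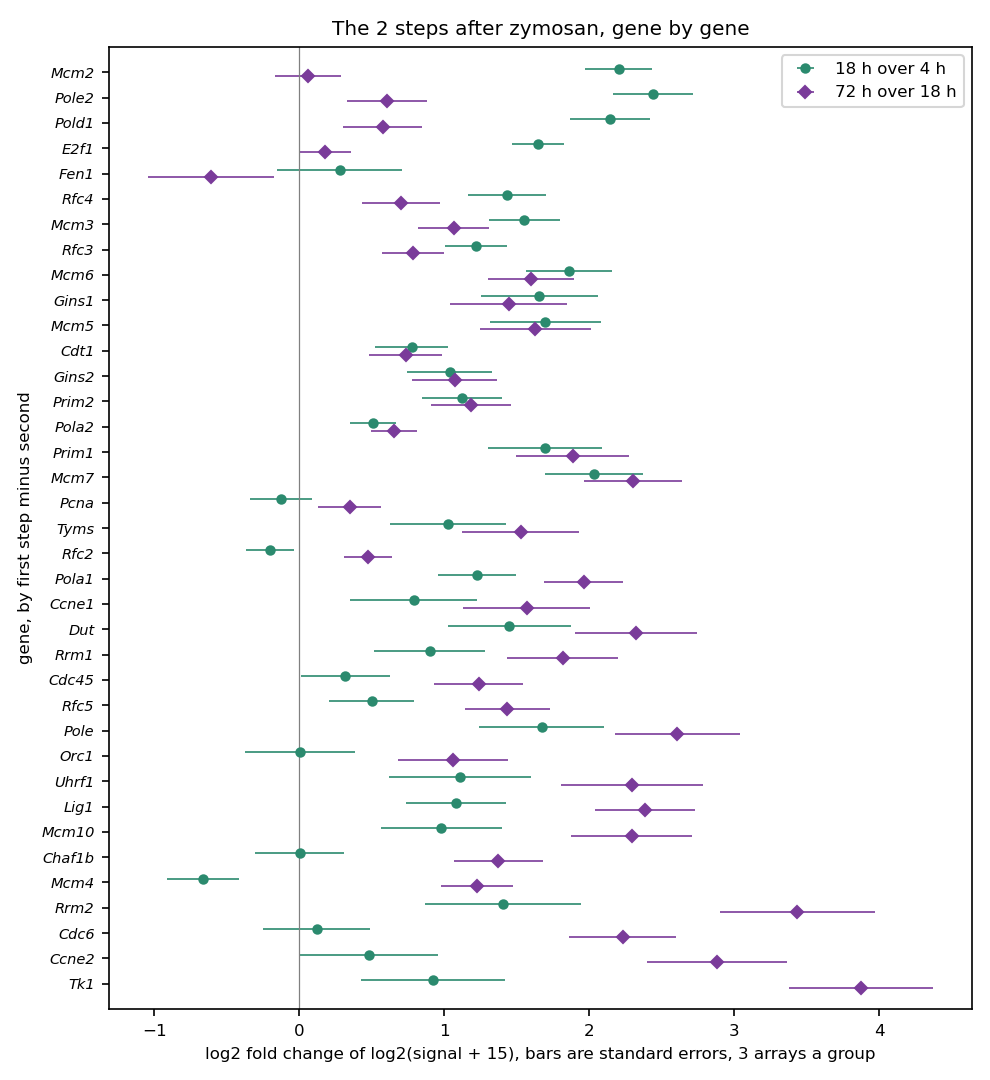
Log2 fold change (horizontal axis) of each of the 37 genes (rows) at 18 h over 4 h (circles) and at 72 h over 18 h (diamonds), with standard errors as bars, from 3 arrays a group, ordered by the difference between the steps. Mcm2, Pole2, Pold1 and E2f1 at the top have the larger value in the earlier step (1.65 to 2.44), and Tk1, Ccne2, Cdc6 and Rrm2 at the bottom have it in the later step (2.23 to 3.87).

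The 2 steps share the 18 h arrays, so their difference was tested as a contrast of its own, chosen after the values had been seen. Of the 37 genes, 4 had a larger earlier than later step and 4 a smaller one, where 9.47% and 7.14% of all genes were called. Both counts lie near these shares, so they do not set the 37 apart from other genes. Larger were Mcm2 (by 2.14 ± 0.396, limma, adjusted p = 0.000484), Pole2 (1.83 ± 0.479, adjusted p = 0.00808), Pold1 (1.57 ± 0.472, adjusted p = 0.0197) and E2f1 (1.47 ± 0.310, adjusted p = 0.00153). Smaller were Tk1 (-2.95 ± 0.859, adjusted p = 0.016), Ccne2 (-2.40 ± 0.834, adjusted p = 0.0423), Cdc6 (-2.11 ± 0.641, adjusted p = 0.0205) and Mcm4 (-1.89 ± 0.430, adjusted p = 0.00293). The signals of Tk1 and Ccne2 lay under 80.6 in all arrays at 4 h and at 18 h, where log2(signal + 15) shrinks differences. Their earlier step is therefore understated, and so is the later step, which starts from the 18 h signals. With a pseudocount of 1 the contrast was -2.89 for Tk1, still called, and -2.52 for Ccne2, no longer called. E2f1 and Mcm4 kept the call in every alternative run. Without 18 h replicate 2, Mcm4 alone was called smaller, and with the mean of each gene's probe sets, E2f1 alone was called larger. Mcm2's other probe set read 367, 420 and 370 at 18 h and 72.1, 106 and 97.0 at 4 h, and its difference between 72 h and 18 h was 1.31 on the log2 scale, against 0.06 for the probe set chosen.

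The share of the 72 h over 4 h difference that was present at 18 h describes the same order. Steps and shares compare populations sorted with different surface markers, so time and sorted population cannot be told apart in them. Over the 33 genes whose group means differed by at least 1 on the log2 scale, the median share was 40.2%, with 11 genes at 50% or more. It was highest for Mcm2 (97.3%), E2f1 (90.4%), Pole2 (80.0%) and Pold1 (78.8%), and lowest for Chaf1b (0.3%), Orc1 (0.7%), Cdc6 (5.1%) and Ccne2 (14.2%). For the other E2f1 probe set with a signal above 80.6 on average the share was 100.0%, and for Mcm2's it was 59.4%. For Orc1's other probe set, whose mean on the linear scale is higher (121.9, against 102.6 for the one chosen), the share was -51.2%, with 15.7, 13.5 and 21.4 at 18 h and 11.7, 80.2 and 46.9 at 4 h. Orc1, Ccne2, Tk1, Tyms and Pole averaged under 80.6 at both times, so that their shares rest on signals near the floor and have no firm order. For 28 genes of the mitosis list the median share was 12.7% and none reached 50% (highest 48.2%). Genes whose windows hold an E2F form stood at both ends of this order, Cdc6 among the lowest and Pole2 and Pold1 among the highest.

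**Figure D4:**
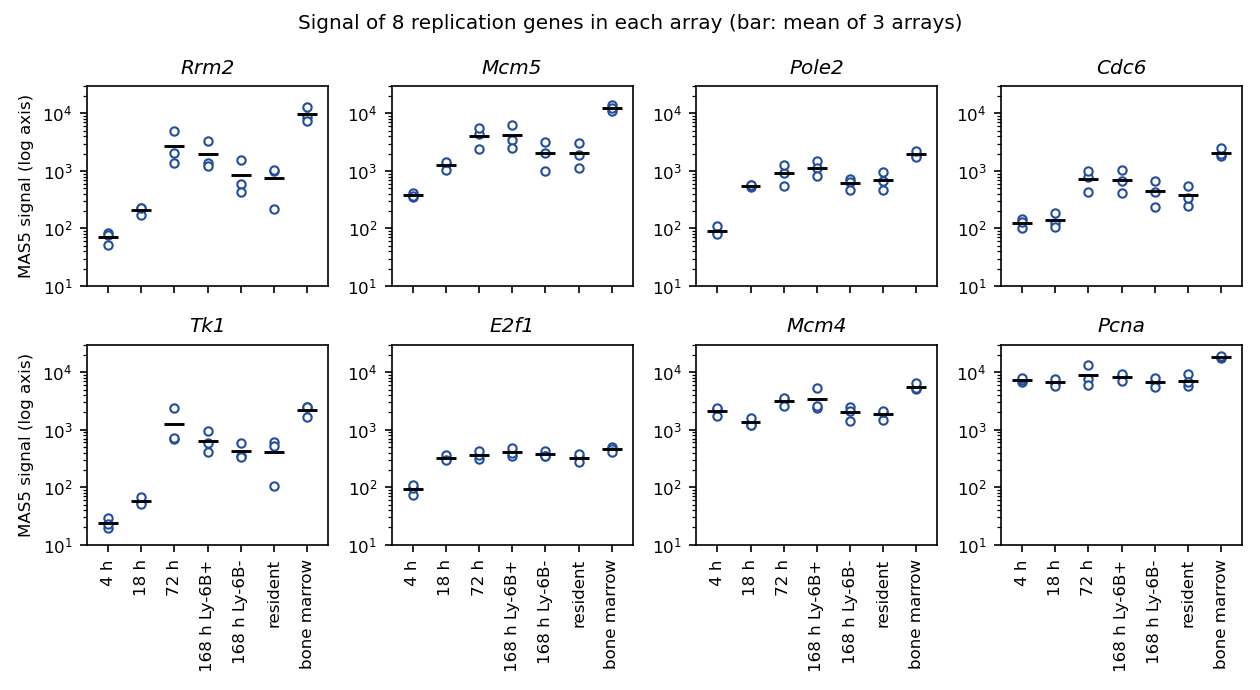
MAS5 signal (log axis) of Rrm2, Mcm5, Pole2, Cdc6, Tk1, E2f1, Mcm4 and Pcna in each array (circles) of the 7 groups, with bars at the mean of 3 arrays. E2f1 at 18 h (296 to 365) is near its 72 h level (313 to 425), Pole2 at 18 h (524 to 580) is below 2 of its 3 arrays at 72 h (547 to 1252), Cdc6 and Tk1 at 18 h (108 to 189 and 50.6 to 68.8) are below it, Mcm4 is lowest at 18 h, and Pcna stays within 5634 to 13271 outside bone marrow.

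Related lists were read beside the 37. Of all genes tested, 14.5% were called lower at 4 h than in bone marrow, 10.9% higher at 18 h than at 4 h, and 9% higher at 72 h than at 18 h. These shares stand beside the counts of each list. Of 29 genes for G2 and mitosis, 29 were called lower at 4 h than in bone marrow, 4 higher at 18 h than at 4 h, and 28 higher at 72 h than at 18 h. The count of 4 lies near the share of all genes. The 4 were Bub1b (2.41 ± 0.522, adjusted p = 0.000866) and Mad2l1 (1.33 ± 0.385, adjusted p = 0.00873) of the spindle checkpoint, Aurkb, a mitotic kinase (1.96 ± 0.457, adjusted p = 0.00164), and Top2a, which untangles DNA (1.57 ± 0.463, adjusted p = 0.00954). In the contrast of the steps, 19 of the 29 were called smaller and 0 larger, with Nuf2 of the kinetochore at -4.75 ± 0.792 (adjusted p = 0.000172). The median log2 fold change at 18 h over 4 h was 1.08 for the replication genes and 0.49 for the mitosis list, and at 72 h over 18 h it was 1.44 for the replication genes and 3.37 for the mitosis list. Mki67, the Ki-67 antigen gene, read 206, 256 and 200 at 4 h, 480, 434 and 382 at 18 h, and 4757, 11519 and 2411 at 72 h.

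Of 36 further replication genes, 29 were called lower at 4 h than in bone marrow, 10 higher at 18 h than at 4 h and 10 higher at 72 h than at 18 h, with none called the other way in these comparisons. Rpa1, of the protein that coats single-stranded DNA, read 4488, 3988 and 5230 at 18 h and 1109, 1079 and 1160 at 4 h (2.01 ± 0.162, adjusted p = 7.43e-09). Gmnn, geminin, the inhibitor of Cdt1, read 1379, 1023 and 1457 at 18 h and 310, 304 and 330 at 4 h (1.97 ± 0.253, adjusted p = 3.08e-06). Neither gene overlapped between the times. Clspn, a mediator of the replication checkpoint, was the highest at 72 h over 18 h (2.56 ± 0.419, adjusted p = 7.52e-05), followed by the histone chaperone Asf1b (2.37 ± 0.467, adjusted p = 0.000523).

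Of 18 other nucleotide genes tested, 7 were called higher at 18 h than at 4 h, and 0 higher and 1 lower at 72 h than at 18 h. Cad, which starts pyrimidine synthesis, read 192, 192 and 183 at 4 h, 610, 795 and 778 at 18 h, and 474, 482 and 296 at 72 h, a log2 fold change of 1.86 ± 0.194 at 18 h over 4 h (limma, adjusted p = 2.14e-07). Shmt2, a mitochondrial enzyme of folate metabolism, rose by 1.69 ± 0.163 (adjusted p = 7.83e-08), CTP synthase Ctps by 1.66 ± 0.290 (adjusted p = 0.000104) and the purine synthesis gene Gart by 1.29 ± 0.137 (adjusted p = 2.76e-07). The gene that was lower at 72 h was Umps, which makes uridine monophosphate (-1.54 ± 0.190, adjusted p = 2.65e-06). In the contrast of the steps, the 5 nucleotide genes among the 37 had 0 called larger and 1, Tk1, called smaller, while 7 of the 18 others were called larger and 0 smaller, Cad by 2.66 ± 0.335 (limma, adjusted p = 8.42e-06).

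Of 17 genes for replication stress and repair, 2 were called higher at 18 h than at 4 h and 10 at 72 h than at 18 h. The count of 2 lies near the 10.9% of all genes called higher at 18 h. The checkpoint kinase gene Chek2 was higher at 18 h by 1.79 ± 0.245 on the log2 scale (limma, adjusted p = 6.53e-06). Among 12 other E2F genes and partners, the atypical repressors E2f7 (3.15 ± 0.439, adjusted p = 1.15e-05) and E2f8 (3.09 ± 0.445, adjusted p = 1.73e-05) and the partner Tfdp2 (2.09 ± 0.290, adjusted p = 1.12e-05) were called higher and E2f2 lower (-1.27 ± 0.373, adjusted p = 0.0123) at 72 h than at 18 h. E2f7 read 369, 642 and 193 at 72 h and 32.1, 18.6 and 32.1 at 18 h.

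Of 19 G1 cyclins, kinases and inhibitors, the changes went both ways. Ccnd1, cyclin D1, read 347, 338 and 349 at 4 h, 710, 778 and 692 at 18 h and 3103, 2140 and 1443 at 72 h, with 3769, 4951 and 2340 in resident cells and 117, 100 and 114 in bone marrow. It was called higher at 18 h than at 4 h (1.04 ± 0.338, adjusted p = 0.0175) and at 72 h than at 18 h (1.53 ± 0.338, adjusted p = 0.00149), and bone marrow, the highest group for 36 of the 37 replication genes, was its lowest. Cdkn1a (p21), a cyclin-dependent kinase inhibitor, read 6807, 7080 and 5922 at 72 h and 13739, 17210 and 17570 at 18 h (-1.29 ± 0.163, adjusted p = 3.86e-06). Cdkn2d, an inhibitor of the cyclin D kinases, fell at 18 h against 4 h by 2.22 on the log2 scale (SE 0.221, adjusted p = 1.19e-07), and its relatives Cdkn2b (3.02 ± 0.282, adjusted p = 6.48e-08) and Cdkn2c (2.80 ± 0.241, adjusted p = 1.97e-08) rose at 72 h against 18 h.

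Macrophages at 72 h were then set against the naive populations. Against bone marrow, 27 of the 37 genes were called lower and 0 higher at 72 h, where 8.32% of all genes were called lower and 11.5% higher, with a median log2 fold change of -1.19. Cdc45, of the active helicase, read 316, 570 and 242 at 72 h and 1342, 1238 and 1858 in bone marrow, a log2 fold change with a 95% interval of -2.64 to -1.36 (limma, adjusted p = 1.99e-05). Arrays of the groups did not overlap for 32 of the 37 genes (24.7% of all genes). Without 72 h replicate 3, the lowest array of the group, 12 were called, and the share of all genes in that fit is not given here. Of the 10 progenitor markers all were called lower (sums of 5452 to 8098 at 72 h and 35420 to 95640 in bone marrow), as were 7 of 9 neutrophil and granule markers and all 6 classical monocyte markers, while all 10 resident macrophage markers were called higher, and their part in the result was not tested.

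Against resident macrophages none of the 37 was called at 72 h by limma, where 0.666% of all genes were called higher and 0.0247% lower. At an unadjusted p under 0.05, 19 were higher and 0 lower, where 6.06% of all genes were higher. The median log2 fold change was 0.67 over the 37 and -0.04 over all genes tested, and 5 genes did not overlap between the groups (6.27% of all genes). Rrm2 had the largest difference, 1.93 ± 0.536 (adjusted p = 0.107), with 2074, 4861 and 1362 at 72 h beside 220, 991 and 1050 in resident cells. Tk1 (1.66 ± 0.496, adjusted p = 0.149) came next, and its 72 h arrays (679, 2396 and 717) lay above all resident arrays (103, 607 and 515). Without 72 h replicate 3, the ribonucleotide reductase genes Rrm1 and Rrm2 were called; in the other alternatives the count was 0. Classical monocyte markers moved with this difference, with 4 of 6 called higher and sums of 15790 to 25180 at 72 h and 7346 to 7623 in resident cells. The B cell sums were 1265 to 17000 at 72 h, highest in replicate 2, and 1076 to 1737 in resident cells. The part of these in the result was not tested.

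At 168 h the Ly-6B+ macrophages were set against the Ly-6B- macrophages of the same time. In the fit over 21 arrays limma called none of the 37, where 1.49% of all genes were called higher and 2.38% lower in Ly-6B+ cells. At an unadjusted p under 0.05, 21 were higher and 0 lower, where 9.8% of all genes were higher. Over the 37, the median log2 fold change was 0.74 and it was -0.02 over all genes tested, and 10 genes did not overlap (11.3% of all genes).

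The replicate numbers of these groups were taken to pair, as the deviations of same-numbered arrays from their group means correlated in these same data. No label states a pairing. In pairs, 33 of the 37 genes were higher in the Ly-6B+ array in all 3, as were 23.3% of all genes tested. In a fit of the 6 arrays with the replicate number as a block, chosen after the data were seen, 29 of the 37 were higher at an adjusted p under 0.05 at any fold and 0 lower, where 7.09% of all genes were higher and 7.5% lower. Past the minimum fold too were 4 genes, where 2.02% of all genes were called higher and 2.72% lower in that fit. They were Rrm2 (1.24 ± 0.120, limma, adjusted p = 0.000435), Mcm5 (1.03 ± 0.120, adjusted p = 0.00104), Lig1 (1.04 ± 0.181, adjusted p = 0.0072) and Pole (1.36 ± 0.254, adjusted p = 0.0101). With the block in the fit of all 21 arrays, Pole was called.

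Rrm2 read 3269, 1368 and 1222 in Ly-6B+ cells and 1568, 582 and 435 in Ly-6B- cells. Mcm5 read 6371, 3506 and 2530 in Ly-6B+ cells and 3149, 2036 and 1011 in Ly-6B- cells. In both genes every Ly-6B+ array was above the Ly-6B- array of its number while the groups overlapped. Cdt1 read 5449, 3512 and 2759 in Ly-6B+ cells and 2583, 1890 and 1646 in Ly-6B- cells, without overlap, and had an adjusted p of 0.0288 in the fit over 21 arrays (0.90 ± 0.251, short of the minimum fold). The 4 genes not higher in all 3 pairs were Mcm2, Pola2, E2f1 and Fen1. Monocyte markers moved with the same difference: Ccr2 read 8142, 6546 and 5854 in Ly-6B+ cells and 146, 231 and 103 in Ly-6B- cells, and 9 B cell markers summed to 3408 to 5081 in Ly-6B+ cells and 1693 to 2185 in Ly-6B- cells. Their part in the result was not tested.

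**Figure D5:**
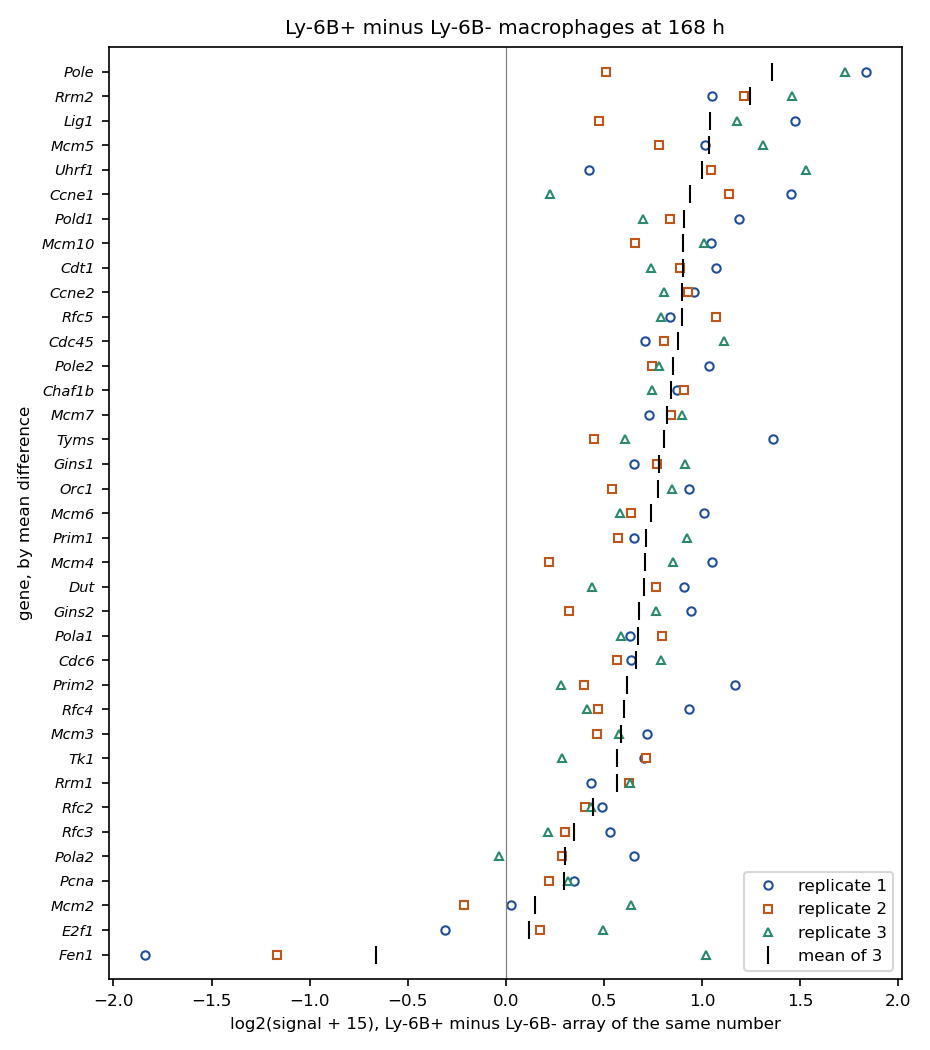
Log2(signal + 15) of the Ly-6B+ array minus the Ly-6B- array of the same replicate number at 168 h (symbols by number, bars at the mean of 3) for each of the 37 genes, ordered by the mean. All 3 differences lie above 0 for 33 genes (and for 23.3% of all genes tested), with the largest means for Pole (1.36) and Rrm2 (1.24), and they lie on both sides of 0 for Fen1.

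Outside the 37, 2 of the 36 further replication genes were called higher in Ly-6B+ cells, where 1.49% of all genes were. Timeless, of the fork protection complex, read 1126, 683 and 439 in Ly-6B+ cells and 344, 335 and 188 in Ly-6B- cells (1.28 ± 0.345, adjusted p = 0.0241). Nasp, a histone chaperone, read 1259, 864 and 621 in Ly-6B+ cells and 461, 455 and 376 in Ly-6B- cells (1.01 ± 0.244, adjusted p = 0.011). Neither overlapped. Of the mitosis list none was called, but all 29 genes were higher in Ly-6B+ cells. Their median log2 fold change was 1.01, beside 0.74 for the 37, and 7 did not overlap (11.3% of all genes). Cdkn2b (p15), an inhibitor of the cyclin D kinases, read 113, 131 and 103 in Ly-6B+ cells and 764, 722 and 918 in Ly-6B- cells (-2.64 ± 0.282, adjusted p = 1.97e-06), and cyclin D2, Ccnd2, read 653, 617 and 517 in Ly-6B+ cells and 200, 220 and 206 in Ly-6B- cells (1.44 ± 0.346, adjusted p = 0.0103).

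Against resident macrophages, the Ly-6B+ cells gave 0 genes called of 37 by limma, where 1.9% of all genes were called higher and 2.36% lower. At an unadjusted p under 0.05, 19 were higher and 0 lower, where 9.81% of all genes were higher. The groups did not overlap for 7 genes (12.1% of all genes), and the median over the 37 was 0.70. Lig1 (1.10 ± 0.347, adjusted p = 0.053) read 2333, 1404 and 1195 in Ly-6B+ cells and 397, 986 and 983 in resident cells, without overlap. Cdt1 (0.85 ± 0.251, adjusted p = 0.0367) did not reach the minimum fold. Of the classical monocyte markers 5 of 6 were called higher in Ly-6B+ cells (sums of 45540 to 55520, against 7346 to 7623 in resident cells), of the resident macrophage markers 6 of 10 were called lower, and of the B cell markers 5 of 9 did not overlap in the higher direction with none called. Their part in the result was not tested.

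Neither of the 2 remaining comparisons called a gene. Ly-6B- cells at 168 h against resident cells had a median log2 fold change of -0.02, with 0 of 37 at an unadjusted p under 0.05, where limma called 0.0411% of all genes higher and 0% lower. The differences ran from -0.37 for Pole to 0.64 for Fen1, and for Mcm5 the 95% interval was -0.81 to 0.80. Ly-6B+ cells at 168 h against 72 h macrophages had a median of -0.02, with 0 of 37 at an unadjusted p under 0.05, where limma called 0.666% of all genes higher and 1.85% lower. Tk1 had the largest difference there, -0.78 ± 0.496 (adjusted p = 0.512), with 949, 583 and 405 in Ly-6B+ cells and 679, 2396 and 717 at 72 h.

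Other probe sets were read for the same genes. Of the 37 genes 7 had 1 probe set and 30 had several, with 47 further probe sets, 30 of which averaged above 80.6. All 30 were lower at 4 h than in bone marrow, and 22 were within 1 of the chosen value on the log2 scale. The widest gap was that of Cdc45, whose other probe set read 103, 143 and 188 at 4 h and 243, 185 and 122 in bone marrow, groups that overlapped, with a log2 difference of -0.30 against -3.56 for the one chosen. Of 4 further Mcm3 probe sets above 80.6, 1 gave -1.50 against -3.88, and the other 3 were within 1 of it. Fen1 came next in the size of the gap. Its chosen probe set read 6915, 7965 and 2956 at 4 h and 7278, 7603 and 8264 in bone marrow, while another read 294, 375 and 326 at 4 h and 1373, 1564 and 1614 in bone marrow, a log2 difference of -2.15. That other probe set read 281, 278 and 295 at 18 h and 562, 1122 and 482 at 72 h. Mcm4's other probe set read 752, 918 and 904 at 18 h and 1234, 1296 and 1238 at 4 h, the same order as the chosen one. The highest group of E2f1 depends on the probe set. Its other probe set above 80.6 averaged 302 in Ly-6B+ cells at 168 h and 236 in bone marrow.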

How the data were processed

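The authors computed a linear signal intensity per probe set with the MAS5 method of Affymetrix Expression Console 1.2, per the submitters' processing notes, and deposited it; 100 ng of RNA was amplified and labelled in 2 cycles per the labels. The 2% trimmed mean was 500 in every array, tested on the values, so a level is relative to its array's total. The table held 45101 probe sets in 21 arrays; 34945 carried 1 gene symbol, and those with several (932) or none listed (9211) were left out. Depth has no meaning for arrays, and detection calls were left aside.

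Values entered the tests as log2(signal + 15), 15 being the rounded 20th percentile, and genes with a signal above 80.6 in at least 3 arrays were tested. Comparisons used limma 3.58.1 in R 4.3.3 (lmFit over the 21 arrays, trended eBayes, 14 residual degrees of freedom), 2-sided, and the method was tested on simulated data; tables and figures used Python 3.11.15. For single values, 3 against 3 arrays cannot give an exact permutation p below 0.1, so only the fit over all genes was used. P-values measure the spread between the labelled biological replicates, estimated for each gene over all groups together and not for the compared groups alone.

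Replicate numbers were checked by the correlation of same-numbered arrays' deviations from group means. At 168 h, Ly-6B+ against Ly-6B-, it was 0.304, 0.28 and 0.175, all over 0.1, and the numbers were taken to pair; the origin of the pairing is not given in the sources used here. No other comparison had all 3 over 0.1. No arrays held identical values (highest correlation 0.981).

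The 38 genes and all other lists were chosen with earlier results of these data known. Named were, per comparison, the 4 called genes with the largest change whose arrays do not overlap, a set of genes standing for each role, the genes not called where most were, and up to 4 called genes of each other list. A result of the repair list is not reported here. Alternatives were other pseudocounts (1 and 60), quantile scaling, a common array median, other filters, averaged probe sets, no trend, array weights, no minimum fold, a replicate block, and leaving out each array.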

Additional observations from a re-analysis of the deposited data

How the results depend on the processing

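The direction of the median over the 37 genes and the counts of calls were recomputed under each alternative, and 1184 of 1220 recomputed values stayed within the spread between arrays or within 1.5 times the count. At 18 h over 4 h, 12 genes were called with 4 times the pseudocount and 13 with a common array median, against 20, and Mcm4 (1 gene) was called lower with no minimum fold. With the mean of each gene's probe sets, the median log2 fold change was 0.71 at 18 h over 4 h and -3.10 at 4 h over bone marrow, Tyms at 18 h over 4 h was -0.023, against 1.03, and 1 gene (E2f1) had a called larger earlier step. At 4 h over resident cells the median was -1.44 with 4 times the pseudocount, -1.62 with a common array median and -1.52 with the mean of probe sets.

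For Ly-6B+ over Ly-6B- cells at 168 h, 1 gene (Pole) was called with 4 times the pseudocount, a common array median or the replicate block, 2 (Cdt1 and Pold1) with no minimum fold, and 4 with the replicate block on the 6 arrays. Leaving out 1 array gave 0 to 7, with 7 without Ly-6B+ replicate 3, 4 without Ly-6B- replicate 1, 2 without 72 h replicate 2, and 1 without Ly-6B- replicate 2 or resident replicate 1. For Ly-6B+ over resident cells, 1 gene was called with 4 times the pseudocount, a common array median, the filter at the 75th percentile, the replicate block, no minimum fold, or without the 3 arrays whose markers stood apart (72 h replicate 2, 4 h replicate 2 and bone marrow replicate 3, chosen after the data were seen), Cdt1 with no minimum fold and Lig1 in the others. Leaving out 1 array gave 0 to 4, with 4 without Ly-6B+ replicate 3 and 3 without resident replicate 2. At 72 h over resident cells this range was 0 to 2, and at 72 h over bone marrow 12 to 29.

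Leaving out 1 array gave 19 to 26 called at 72 h over 18 h, 16 to 21 at 18 h over 4 h, 36 in every case at 4 h over bone marrow and 1 to 5 smaller earlier steps (2, 1 and 2 without 18 h replicates 1, 2 and 3). Calls that held in every alternative numbered 33 of 36 at 4 h over bone marrow, 28 of 30 for resident over bone marrow, 10 of 20 at 18 h over 4 h and 16 of 26 at 72 h over 18 h. The replicate block changed no other count by more than 1.5 times. The cause of these differences was not tested. Shares of all genes called under each alternative are not given here, so changes particular to the 37 cannot be told from general ones. Low signals limit how large a fold change can be: 12 of the 37 genes averaged under 80.6 at 4 h, Rrm2 and Dut among them, and 5 at both 4 h and 18 h.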
